A study of Homo sapiens with 66 samples.

Results

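The responses of 2 acute myeloid leukaemia (AML) cell lines to etoposide, F-36P and KASUMI-1, were set against each other gene by gene. The comparison used 12 of the 66 RNA-seq libraries of the series, 3 libraries in each of 4 groups: F-36P untreated, F-36P etoposide, KASUMI-1 untreated and KASUMI-1 etoposide. For each gene the log2 fold change of etoposide over untreated is called the response, and the difference of the responses is that of F-36P minus that of KASUMI-1, so a positive difference means a higher response in F-36P. Untreated cells received medium alone, and all cells were harvested at 24 h. Each line received its own concentration, taken from its viability curve, and of the lines treated F-36P was given the highest and KASUMI-1 the second highest. Line and concentration therefore cannot be told apart in any difference below. F-36P is an established line from a patient with erythroid leukaemia, and KASUMI-1 is an established myeloblastic line that carries the RUNX1-RUNX1T1 fusion. Each library is described as a biological replicate, with the cells of several wells pooled for its RNA, and each line is a single established culture, so the p-values measure the spread between such cultures of 1 line.

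Etoposide traps type II topoisomerases on DNA at the point where both strands are cut, and the trapped enzymes become double-strand breaks. Cells answer such breaks with checkpoint kinases, p53 and its targets, cell cycle arrest, loss of growth programmes driven by MYC, and inflammatory and interferon signalling, and a damaged cell may go on to die. Other stress programmes can be engaged beside these, such as the amino acid and unfolded protein response run by the transcription factor ATF4 and the sterol response run by the SREBP factors, which switch on cholesterol synthesis genes when membrane sterol is low.

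The defining markers fitted the labels. Haemoglobin gamma HBG2 had a mean of 5726 CPM (the usual count scaled to library size, here reads on genes) in untreated F-36P cells and 0.108 in untreated KASUMI-1 cells. The granule enzyme MPO had a mean of 27948 CPM in untreated KASUMI-1 cells and 1.03 in F-36P, and RUNX1T1 had 256 and 0.0760 CPM. The libraries held 18218362 to 21121569 reads on genes. The number of genes with at least 1 read went from 20999 to 21285 in untreated F-36P libraries to 29738 to 30168 after etoposide, and from 19654 to 19932 to 24884 to 25445 in KASUMI-1. Mitochondrial genes took 5.26 to 7.34% of the reads. Untreated F-36P libraries differed from each other with GC content: over the lowest of 5 equal bins of genes by GC, replicate 3 deviated from the group mean by a median of 0.29 on the log2 scale and replicate 1 by -0.38. KASUMI-1 untreated replicate 3 deviated by -0.16 and KASUMI-1 etoposide replicate 2 by -0.13 over the same bin. F-36P etoposide replicate 2 held far fewer reads on interferon-stimulated genes than the other 2. The counts that lead the main comparisons are given with and without 3 libraries together, F-36P untreated replicate 3, F-36P etoposide replicate 2 and KASUMI-1 etoposide replicate 2. These were chosen after the values were seen, and they are not the ones that deviate most with GC content. The automatic TMM reference is F-36P untreated replicate 1 for all 12 libraries and turns to KASUMI-1 etoposide replicate 1 without these 3, so the counts without them are given with the reference kept. In bulk RNA, fewer cells of a kind and less RNA per cell cannot be told apart.

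Of 17303 genes tested, 1330 had a higher response in F-36P (7.69% of genes tested) and 1240 a higher response in KASUMI-1 (7.17%), at an adjusted p under 0.05 by edgeR's quasi-likelihood test and a difference of more than 1 on the log2 scale. Without the 3 libraries named above, with the TMM reference kept, the counts were 1240 and 1083, and with the reference that the smaller set selects they were 1455 and 750. This split depended on the scaling. Under the normalization used, the median difference over all genes was -0.22, and 51.8% of the called genes were higher in F-36P. Scaling by DESeq2 size factors within edgeR moved the median to 0.00 and that share to 67.2%, library size alone to 0.04 and 69.0%. When each F-36P library in turn served as the reference of the TMM normalization, 1330 to 1487 genes were higher in F-36P and 908 to 1249 in KASUMI-1, and with each KASUMI-1 library as reference 1569 to 1780 and 675 to 830. Directions given below are relative to that shift.

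Within F-36P, 4116 genes rose (23.8% of genes tested) and 1547 fell (8.94%). In KASUMI-1, 3383 rose (19.6%) and 856 fell (4.95%). Genes that rose in both lines numbered 2128, which is 51.7% of the F-36P inductions and 62.9% of those of KASUMI-1. Genes that fell in both numbered 472, 30.5% of the F-36P repressions and 55.1% of those of KASUMI-1. Most of the shared changes did not differ measurably in size: the difference was not called for 1792 of the shared inductions and 461 of the shared repressions. Its 95% confidence interval, taken from the F statistic, lay within a 2-fold change either way for 253 of those inductions and 340 of those repressions. The shared inductions were low in untreated cells, with a median of 0.190 CPM in F-36P and 0.146 in KASUMI-1. Most of these inductions could thus not be shown to be alike either. Such intervals can be too narrow for genes with few reads, so the 253 may be too high. For SIGLEC1, with 1 read in untreated KASUMI-1 cells, the SE of the difference was 0.30. The SEs of its responses were 0.95 in F-36P and 1.69 in KASUMI-1. Across genes, which are not independent replicates, the responses of the 2 lines had a Pearson r of 0.61.

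Line-specific changes were those called in 1 line and not in the other, with the difference itself called. There were 817 F-36P-specific inductions and 207 F-36P-specific repressions, against 576 and 97 for KASUMI-1. A further 144 genes changed in opposite directions, 80 of them up in F-36P and 64 up in KASUMI-1, and 382 differed without a call in either line. For 2717 genes called in 1 line the difference was not called, so they count neither as shared nor as specific. The F-36P-specific repressions were the best expressed of these classes, with a median of 88.6 CPM in untreated F-36P cells, whereas the F-36P-specific inductions had a median of 0.266 CPM there and 6.59 CPM in untreated KASUMI-1 cells. Many of the genes induced in F-36P alone were thus already present in KASUMI-1. The number of genes with any read rose with treatment in both lines, more in F-36P, and its part in the low-level inductions was not tested. When only the 12014 genes that reached 5 CPM on average in some group were fitted, 2142 rose in F-36P and 1538 in KASUMI-1.

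**Figure D1:**
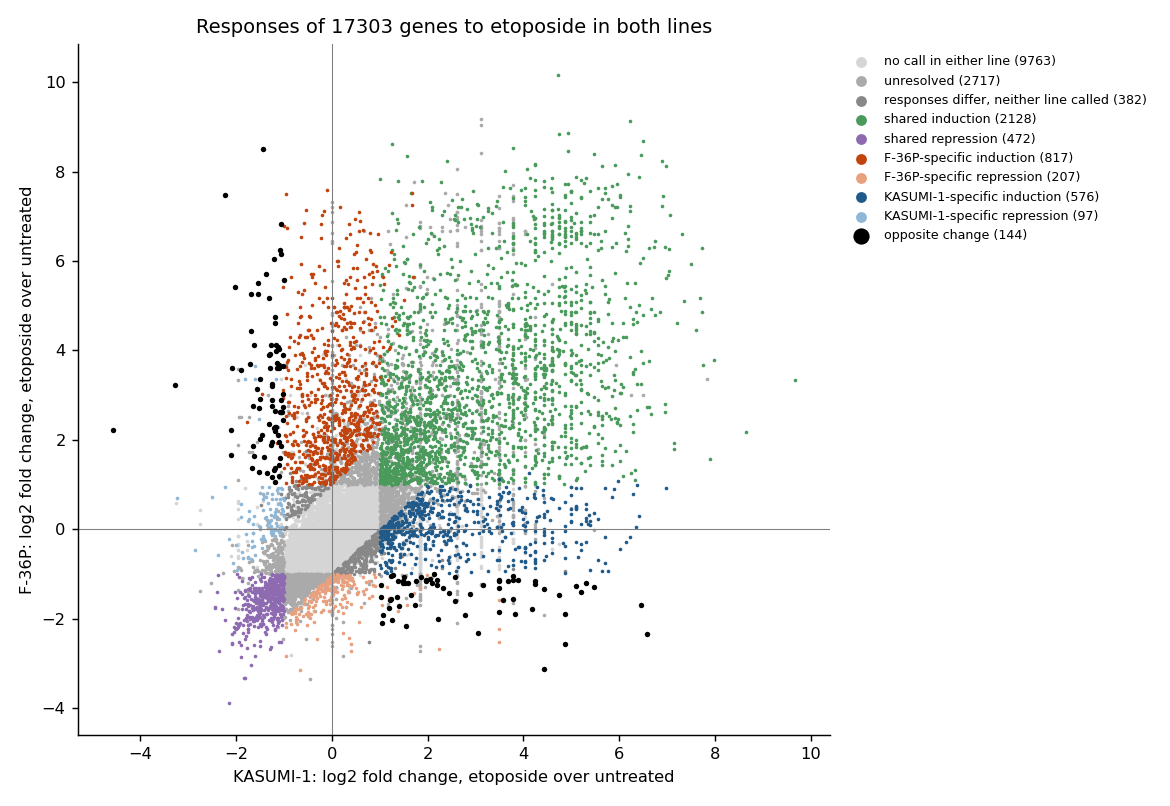
Response to etoposide (log2 fold change over untreated) of each of 17303 genes in KASUMI-1 (horizontal axis) and F-36P (vertical axis), coloured by class, with the number of genes in each class in the legend. The 2128 shared inductions fill the upper right and the 472 shared repressions the lower left. The 144 opposite changes lie in the other 2 corners, and the fitted sizes of genes with few or no reads in untreated cells are not bounds.

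The promoter stretches below belong to genes the following comparisons turn on, and only promoters that held a match were taken. Other genes named below, such as KIF20A, CENPF, TRIB3 and OASL, gave no such stretch. The stretches are shown so that the sequence these genes carry near their start can be read beside their responses. All come from RefSeq, build GRCh38.p14, are written 5′ to 3′ on the gene's own strand and lie within 250 bases before the annotated start. Capitals mark matches, on either strand, to CCAAT, the box bound by NF-Y, in the sterol synthesis genes DHCR7 (chr11:71448417-71448496, minus strand), INSIG1 (chr7:155297653-155297732, plus) and LSS (chr21:46228900-46228979, minus).
DHCR7: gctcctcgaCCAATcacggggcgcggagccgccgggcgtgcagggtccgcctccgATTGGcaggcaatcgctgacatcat
INSIG1: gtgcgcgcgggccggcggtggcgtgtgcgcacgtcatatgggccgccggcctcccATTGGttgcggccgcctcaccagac
LSS: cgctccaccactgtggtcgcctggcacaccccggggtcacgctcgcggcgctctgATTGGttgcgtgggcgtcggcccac
In the amino acid response genes ASNS (chr7:97872449-97872528, minus) and CHAC1 (chr15:40953221-40953300, plus), capitals mark TGATGNAA, a form of the element bound by ATF4 with its partner C/EBP proteins.
ASNS: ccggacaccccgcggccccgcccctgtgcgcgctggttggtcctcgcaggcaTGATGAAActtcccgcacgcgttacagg
CHAC1: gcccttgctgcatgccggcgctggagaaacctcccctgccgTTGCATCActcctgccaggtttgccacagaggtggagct
In the mitotic genes HMMR (chr5:163460552-163460631, plus) and PLK1 (chr16:23678806-23678885, plus) and in TOP2A (chr17:40418022-40418101, minus), they mark TTTGAA, the core of the CHR element of late cell cycle promoters.
HMMR: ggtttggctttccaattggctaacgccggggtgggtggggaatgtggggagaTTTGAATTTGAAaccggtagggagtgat
PLK1: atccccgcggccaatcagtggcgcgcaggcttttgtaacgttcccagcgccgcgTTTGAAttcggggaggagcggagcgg
TOP2A: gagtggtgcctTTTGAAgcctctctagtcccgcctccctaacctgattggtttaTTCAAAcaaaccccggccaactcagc
In ISG15 (chr1:1013345-1013424, plus) and IFIT1 (chr10:89392470-89392549, plus), they mark TTCNNTTTC, the core of the interferon-stimulated response element.
ISG15: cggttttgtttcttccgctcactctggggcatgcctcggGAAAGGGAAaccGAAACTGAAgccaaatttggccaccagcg
IFIT1: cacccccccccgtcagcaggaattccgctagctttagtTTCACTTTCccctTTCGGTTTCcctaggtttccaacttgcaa
CCAAT was present in 78.6% of the 14 sterol synthesis promoters in the RefSeq table and in 78.3% of the 23 mitotic ones, against 33.0% of all 27305 promoters of the same length. TTTGAA was present in 52.2% of the mitotic promoters against 13.6% of all, and TTCNNTTTC in 60.9% of 23 promoters of interferon-stimulated genes against 7.06% of all. TGATGNAA was present in 10.0% of the 20 ATF4 promoters, only the 2 printed above, against 3.19% of all. TCACNCCAC, a form of the sterol element, was present in 1 of the 14 sterol synthesis promoters (7.14%), against 0.875% of all. Over the promoters of genes tested, CCAAT was present in 34.4%, TTTGAA in 8.91%, TTCNNTTTC in 5.71%, TGATGNAA in 1.58% and TCACNCCAC in 0.846%. A match is a description of the letters and not a bound site.

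Cholesterol synthesis genes responded differently in the 2 lines. Of 21 sterol synthesis and uptake genes tested, 15 had a higher response in F-36P and 0 in KASUMI-1. In F-36P 5 rose and 0 fell, and in KASUMI-1 0 rose and 9 fell. The 5 are 23.8% of the list, the same share as of all genes tested, whereas 4.95% of all genes fell in KASUMI-1. The list's median response was 0.73 in F-36P and -0.85 in KASUMI-1, and its median difference was 1.30, against -0.22 over all genes tested. Under other scalings and in DESeq2, 18 of the 21 were higher in F-36P, and 17 were without the 3 libraries named above with the reference kept.

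DHCR7, the last enzyme of the pathway, had 231, 192 and 180 CPM in untreated F-36P libraries and 285, 324 and 453 after etoposide. In KASUMI-1 it had 172, 184 and 204 CPM untreated and 61.6, 71.4 and 65.5 after etoposide. The treated groups did not overlap with their controls in either line, one lying above and the other below. The difference was 2.31 ± 0.21 (log2, SE; adjusted p = 1.9e-06). INSIG1, which retains the SREBP factors in the endoplasmic reticulum and is itself their target, had 125, 114 and 119 CPM against 214, 186 and 283 in F-36P and 147, 154 and 169 against 67.0, 74.3 and 73.8 in KASUMI-1. Its difference was 2.06 ± 0.18 (adjusted p = 1.27e-06). In both genes the level in untreated cells was similar in the 2 lines, and the treated libraries of F-36P were all above, those of KASUMI-1 all below, every untreated library. LSS, which closes the sterol ring, differed by 2.05 ± 0.24 and CYP51A1, the lanosterol demethylase, by 2.27 ± 0.38, though CYP51A1 had under 9 CPM in every library. Fatty acid synthase FASN, which makes no sterol, did not pass the difference test, with responses of -0.90 in F-36P and -1.89 in KASUMI-1, the latter called. FDPS had responses of 0.61 and -0.24 and did not pass either. In the other 8 lines given etoposide, the list's median response ranged from -1.30 to -0.37 and was negative in 8 of 8, so among the 10 lines fitted F-36P had the only positive median. Here and below, each of the 8 was scaled alone, with a median over all genes of -0.04 to 0.03. In the joint fit that median was 0 in F-36P and 0.18 in KASUMI-1, so the scales are not the same. The remaining line, OCI-AML2, was not used, because the study set aside its treated libraries on read quality.

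Genes of the ATF4 stress response showed a like pattern in part. Of 23 tested, 10 had a higher response in F-36P and 0 in KASUMI-1. In F-36P 8 rose, and in KASUMI-1 6 fell and 1 rose. The 10 are 43.5% of the list, against 7.69% of all genes tested. The 8 are 34.8%, against 23.8% of all genes, and 4.95% of all genes fell in KASUMI-1. The list's medians were 0.52 and -0.24, with a median difference of 0.92. ASNS, which makes asparagine, was the 1 member that changed in opposite directions: it had 268, 287 and 217 CPM against 638, 591 and 532 in F-36P, a response of 1.19. In KASUMI-1 it had 98.8, 87.1 and 101 CPM against 42.9, 48.3 and 41.3, a response of -1.11. All treated libraries of F-36P lay above and all treated libraries of KASUMI-1 below their controls, and the difference was 2.30 ± 0.17 (adjusted p = 1.86e-07).

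CHAC1, which degrades glutathione, had 23.9, 22.2 and 14.1 CPM against 60.5, 70.2 and 62.7 in F-36P and 8.91, 8.31 and 8.24 against 3.43, 4.13 and 5.36 in KASUMI-1, a difference of 2.66 ± 0.27. The pseudokinase TRIB3 differed by 2.06 ± 0.17. SLC7A11, the cystine carrier, differed by 2.12 ± 0.28. The CHAC1 groups did not overlap within either line. The ATF4 transcript itself, which is controlled largely at translation, had responses of -0.28 in F-36P and -0.29 in KASUMI-1, and neither was called. In the other 8 lines the list's median ranged from -0.46 to 1.75, so both lines lay within the range of the rest.

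**Figure D2:**
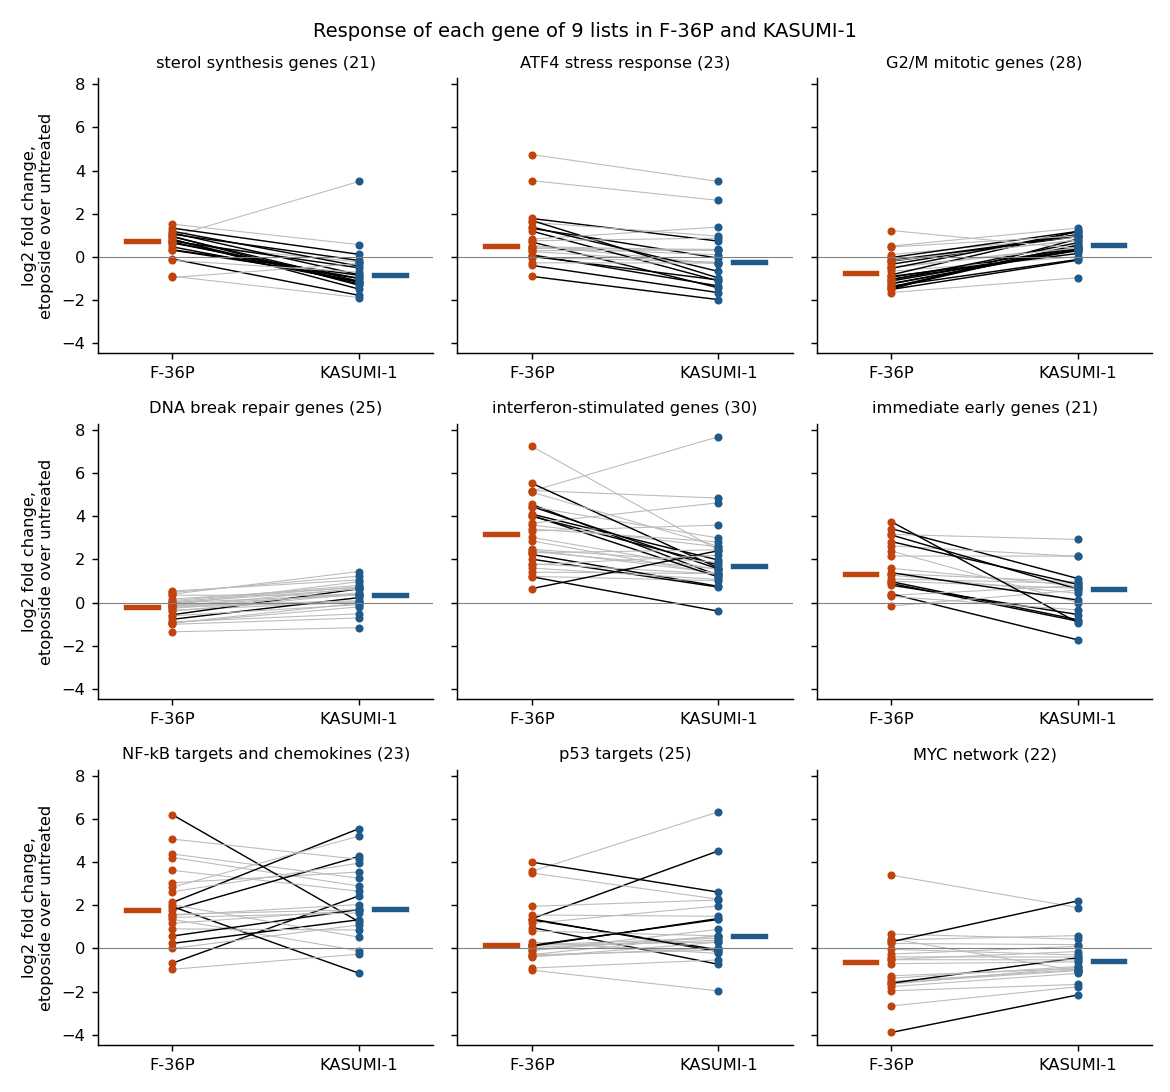
Response (log2 fold change, etoposide over untreated) of each member of 9 gene lists in F-36P (left in each panel) and KASUMI-1 (right), with a line joining the values of 1 gene, black where the difference of the responses was called and grey where it was not. Short thick bars are list medians, 0.73 and -0.85 for the sterol synthesis genes and -0.75 and 0.54 for the mitotic genes, whose black lines run in opposite directions.

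Mitotic genes, which build the spindle and divide the chromosomes, differed the other way. Of 28 G2/M genes tested, 0 had a higher response in F-36P and 18 a higher response in KASUMI-1. In F-36P 11 fell and 1 rose, and in KASUMI-1 5 rose and 0 fell. Of all genes tested 8.94% fell in F-36P. The 5 that rose in KASUMI-1 are 17.9% of the list, against 19.6% of all genes. The list's medians were -0.75 and 0.54, with a median difference of -1.23. Under other scalings 13 to 15 were higher in KASUMI-1 and 1 in F-36P, and without the 3 libraries 17 and 0 with the reference kept, and 12 and 0 with the reference that the smaller set selects. In the other 8 lines, each scaled alone, the list's median ranged from -1.12 to 0.07, which places F-36P within and KASUMI-1 above that range. The median of all genes was 0.18 in KASUMI-1 in the joint fit.

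KIF20A, a kinesin of cytokinesis, had 83.9, 88.2 and 95.7 CPM against 32.4, 32.1 and 37.5 in F-36P. In KASUMI-1 it had 74.7, 78.5 and 76.7 CPM against 111, 114 and 111, and the difference was -1.94 ± 0.14 (adjusted p = 1.35e-07). Every treated library lay outside the untreated range of its line. The mitotic kinase PLK1 differed by -1.36 ± 0.17 and BIRC5, which encodes survivin, by -1.32 ± 0.16, in both cases through a fall in F-36P. CENPE, a centromere kinesin, had 42.8, 50.6 and 101 CPM in untreated F-36P cells and 23.7, 26.9 and 18.3 after etoposide, and in KASUMI-1 42.8, 47.3 and 40.5 against 76.8, 51.3 and 105. Its difference was -2.33 ± 0.41, and the high untreated F-36P library (replicate 3) and the low treated KASUMI-1 library (replicate 2) were among the 3 named above. HMMR, a spindle protein, differed by -2.01 ± 0.38 and CENPF, a kinetochore protein, by -1.96 ± 0.42 with the same libraries high and low. Median GC content was 45.5% over the mitotic list and 54.1% over the sterol list, and the part of GC content in these differences was not tested. Not past the test were CDK1, with responses of 0.10 and 0.92, and CCNA2, with -0.47 and 0.46.

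Few replication genes were called. All 28 had a negative difference, with a median of -0.61 against -0.22 over all genes. With no fold minimum 19 of the 28 were higher in KASUMI-1, against 3331 of all 17303 genes. With the fold minimum, 2 had a higher response in KASUMI-1 and 0 in F-36P, and the licensing factor CDT1 differed by -1.10 ± 0.23. The call of CDT1 was lost under other scalings, where its difference was -0.88 with DESeq2 size factors. All 25 genes for the repair of DNA breaks had a negative difference, with a median of -0.63. Of the 25, 2 were called with a higher response in KASUMI-1, a share close to the 7.17% of all genes. They were MRE11 (-1.20 ± 0.26) and NBN (-1.004 ± 0.31). Both calls were lost with DESeq2 size factors and without F-36P untreated replicate 3, where the differences were -0.98 for MRE11 and -0.65 for NBN, and that of NBN was lost under 16 of 21 alternatives. PRKDC, the kinase of end joining, fell in both lines, with responses of -1.35 and -1.16. Its F-36P call was lost with library size alone (-0.96) and its KASUMI-1 call without KASUMI-1 etoposide replicate 2 (-0.99).

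The targets of the drug itself differed in part. TOP2A, the topoisomerase of dividing cells, had 81.6, 123 and 232 CPM against 108, 113 and 80.3 in F-36P. In KASUMI-1 it had 354, 378 and 269 CPM against 775, 579 and 896, a rise of 1.17 on the log2 scale. The F-36P groups overlapped and those of KASUMI-1 did not, and the difference was -1.70 ± 0.40 (adjusted p = 0.005). TOP2B, the form present also in resting cells, differed by -1.16 ± 0.38, a call lost under other scalings and, for one, without F-36P untreated replicate 3 (-0.73). The efflux pump ABCB1 had 3.31, 5.09 and 8.33 CPM against 21.3, 19.7 and 23.0 in F-36P, with no overlap. In KASUMI-1 its 12.01, 11.9 and 10.4 CPM met 14.1, 11.2 and 14.3, with overlap. Its difference was 1.72 ± 0.31 (adjusted p = 0.000757). ABCC2, another efflux pump, differed by 1.16 ± 0.26 at under 7 CPM in every library. Over the 16 genes of topoisomerases, their repair enzymes and efflux pumps, 2 were higher in F-36P and 2 in KASUMI-1. The shares over all genes were 7.69% and 7.17%. TOP1, which etoposide does not trap, had responses of -0.99 and -0.72, neither of them called.

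Most interferon-stimulated genes, the antiviral programme, rose in both lines. Of 30 tested, 29 rose in F-36P and 22 in KASUMI-1, 21 of them in both, and 0 fell in either line. These are 96.7% and 73.3% of the list, against 23.8% and 19.6% of all genes. The list's responses had medians of 3.17 and 1.68. The difference was called for 9 genes higher in F-36P and 1, MX2, higher in KASUMI-1, and its median was 1.04. The 9 are 30% of the list, against 7.69% of all genes. A library and the choice of fit both move the count of 9. ISG15, a ubiquitin-like modifier, had 289, 93.6 and 640 CPM in the treated F-36P libraries, IFIT1, which binds foreign RNA, had 203, 41.6 and 229, and OASL, an antiviral synthetase-like protein, had 66.0, 11.6 and 88.8, with replicate 2 the lowest in each. Without F-36P etoposide replicate 2, 17 genes were higher in F-36P and 1 in KASUMI-1, and the medians were 3.50 and 1.68 with a median difference of 1.39. In that fit 29 rose in F-36P and 27 in KASUMI-1, so this F-36P library also moves the KASUMI-1 count of 22. Without all 3 libraries named above, 17 and 1 were with the reference kept. With every library kept, the count higher in F-36P was 14 in DESeq2, 16 with no filter beyond 1 read and 17 in 1 fit over 60 libraries.

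Even replicate 2 lay above every untreated F-36P library for these genes: ISG15 had 14.7, 14.2 and 14.8 CPM, IFIT1 6.39, 9.50 and 12.9. In KASUMI-1, ISG15 had 1.97, 2.20 and 2.30 CPM against 3.89, 6.78 and 4.82, and IFIT1 4.35, 3.97 and 3.63 against 9.91, 8.25 and 9.10. The differences were 3.30 ± 0.76 for ISG15, 2.85 ± 0.66 for IFIT1, 3.92 ± 0.95 for OASL and 2.89 ± 0.49 for the proapoptotic XAF1. ISG15 was thus lower in KASUMI-1 before and after etoposide. Neither ISG15 nor IFIT1 was called there with all 12 libraries, though for both every treated KASUMI-1 library lay above every untreated one. Other members rose in both without a called difference: OAS3 by 3.68 and 4.63, the kinase-activated factor STAT2 by 1.60 and 1.08, and the ISG15 ligase HERC5 by 2.44 and 1.37. The medians in the other 8 lines ran from 0.41 to 1.83, so F-36P lay above and KASUMI-1 within that range.

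**Figure D3:**
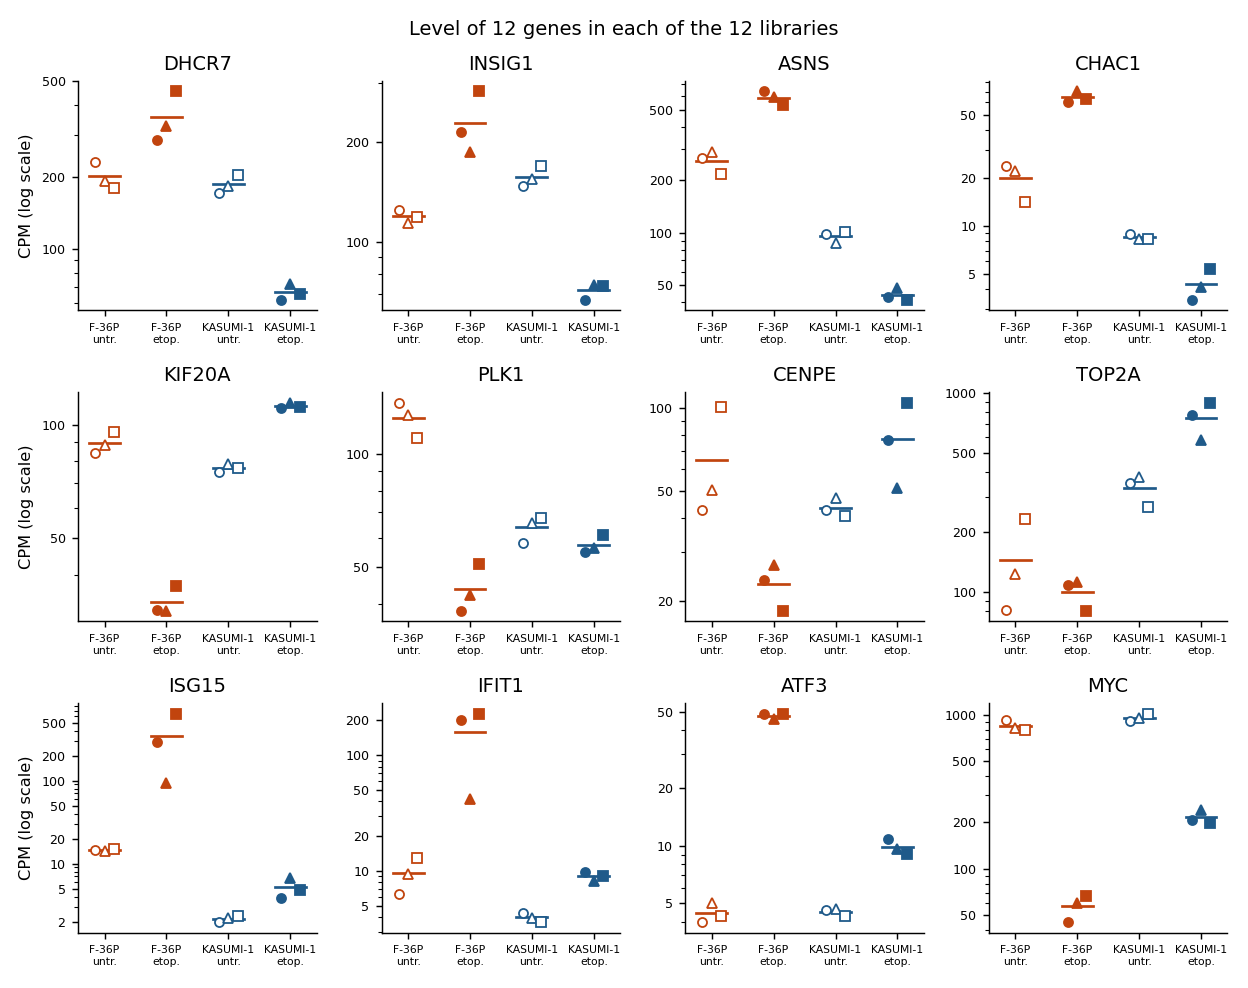
Level in CPM, on a log axis, of 12 genes in each of the 12 libraries, F-36P in red and KASUMI-1 in blue, open for untreated and filled for etoposide, with circle, triangle and square for replicates 1, 2 and 3 and a bar for the group mean. DHCR7, INSIG1, ASNS and CHAC1 are higher after etoposide in F-36P and lower in KASUMI-1, KIF20A is the reverse, and the triangle of treated F-36P is low for ISG15 and IFIT1 (93.6 and 41.6 CPM).

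Immediate early genes, transcription factors switched on within minutes of a stimulus, were higher after etoposide mostly in F-36P. Of 21 tested, 13 rose in F-36P, and 4 rose and 1 fell in KASUMI-1. The 13 and the 4 are 61.9% and 19.0% of the list, against 23.8% and 19.6% of all genes. A difference was called for 9, all higher in F-36P, and the median difference was 0.84. The 9 are 42.9% of the list, against 7.69% of all genes. ATF3, a stress-induced repressor, had 3.99, 5.04 and 4.28 CPM against 48.9, 46.0 and 48.5 in F-36P. In KASUMI-1 it had 4.61, 4.66 and 4.32 CPM against 10.8, 9.63 and 9.01. It rose in both lines from a similar untreated level, and the difference was 2.31 ± 0.18 (adjusted p = 3.37e-07).

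FOS and FOSB, subunits of the AP-1 factor, were low throughout. FOSB had 0.856, 0.458 and 0.732 CPM against 8.03, 9.71 and 10.1 in F-36P and 1.97, 4.93 and 1.04 against 1.25, 2.09 and 0.876 in KASUMI-1, where the groups overlapped. The differences were 4.68 ± 0.64 for FOSB and 2.51 ± 0.48 for FOS. FOSL1, another subunit, differed by 2.14 ± 0.34 through a fall in KASUMI-1. Medians of the list in the other 8 lines were -0.07 to 1.08, below the 1.35 of F-36P, while the 0.62 of KASUMI-1 lay within that range.

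NF-kB targets and chemokines rose alike in number. Of 23 tested, 17 rose in F-36P and 16 in KASUMI-1, 12 of them in both, and 0 fell, with medians of 1.78 and 1.81. These are 73.9% and 69.6% of the list, against 23.8% and 19.6% of all genes. NFKB2, the precursor of the noncanonical subunit, rose by 1.54 and 2.03 and the adhesion molecule ICAM1 by 1.44 and 1.65. The difference was called for 2 genes higher in F-36P and 5 higher in KASUMI-1. The 2 are 8.70% of the list, close to the 7.69% of all genes, and 7.17% of all genes were higher in KASUMI-1. The cytokine IL1B had 26.7, 22.4 and 32.3 CPM against 15.9, 14.9 and 20.03 in F-36P and 2.07, 1.93 and 2.36 against 11.8, 11.8 and 10.9 in KASUMI-1, a difference of -3.12 ± 0.23. The lines thus ended closer than they began. The apoptosis inhibitor BIRC3 had 2 reads in untreated and 123 in treated KASUMI-1 cells, a ratio of 55.1 (exact 95% interval 14.9 to 460), and rose from 0.684, 2.12 and 1.97 to 7.61, 5.34 and 8.01 CPM in F-36P. TNF, with 0 reads in untreated F-36P cells and 31 after etoposide, was at least 8.04-fold higher there against a floor of 3 reads over the group, and stayed under 0.6 CPM in every library. CXCL3 differed by 3.09 ± 0.88 at under 1 CPM, a call lost without F-36P etoposide replicate 1, where the TMM reference changed as well.

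MYC fell in both lines, with part of its network. MYC itself, which drives ribosome production and growth, had 921, 822 and 801 CPM against 44.9, 59.7 and 66.6 in F-36P. In KASUMI-1 it had 906, 962 and 1018 CPM against 208, 241 and 200. From like untreated levels the treated libraries of F-36P all lay below those of KASUMI-1, with a difference of -1.74 ± 0.18 (adjusted p = 5.24e-06). Of 22 network genes, 10 fell and 1 rose in F-36P and 6 fell and 2 rose in KASUMI-1, 5 falling in both. Among all genes tested 8.94% fell in F-36P and 4.95% in KASUMI-1. The list's medians were -0.61 and -0.57. Lactate dehydrogenase LDHA fell in both (-1.77 and -1.15), and the nucleolar protein NCL fell in F-36P (-1.65) with a response of -0.87 in KASUMI-1. The difference was called for 3, higher in KASUMI-1: MYC, the MYC antagonist MXD3 (-1.90 ± 0.30) and NPM1 (-1.18 ± 0.29), the last lost under other scalings.

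The 5 largest shared repressions at 1 CPM or more in each line were MYC, the ribosome assembly genes RRS1 (-2.71 in F-36P and -2.36 in KASUMI-1) and NOP16 (-2.54 and -2.08), the nucleolar CCDC86 (-2.56 and -2.09) and the growth factor ANGPT1 (-2.35 and -2.09). RRS1 had 59.9, 57.1 and 46.7 CPM against 7.77, 8.88 and 8.32 in F-36P, and 42.1, 44.3 and 51.3 against 8.29, 9.83 and 8.62 in KASUMI-1. Levels before and after were close in the 2 lines. The largest shared inductions were the sialic acid receptor SIGLEC1 (7.04 in F-36P), the Fc receptor FCGR2B (6.60 and 7.32), the chemotactic receptor FPR1 (4.86 and 5.08), the iron hormone HAMP and the lipase PNPLA1. FCGR2B had 0.228, 0 and 0.281 CPM against 19.2, 16.2 and 16.1 in F-36P and 0.259, 0.322 and 0.518 against 57.3, 60.7 and 58.5 in KASUMI-1. SIGLEC1 and HAMP had 1 and 2 reads in untreated KASUMI-1 cells and PNPLA1 0 in untreated F-36P cells, so only ratios are given: 180 (exact 95% interval 31.96 to 7148) for SIGLEC1 and 84.2 (23.0 to 700.5) for HAMP in KASUMI-1, and at least 51.6-fold for PNPLA1 in F-36P. SIGLEC1 also had 19.9, 3.68 and 53.5 CPM in treated F-36P, with replicate 2 again lowest.

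p53 targets gave a mixed picture. Of 25 tested, 9 rose and 1 fell in F-36P and the same numbers did in KASUMI-1, with 7 rising in both. The 9 are 36% of the list, against 23.8% of all genes in F-36P and 19.6% in KASUMI-1. The list's medians were 0.17 and 0.57. CDKN1A, the cyclin-dependent kinase inhibitor p21, had 7.64, 7.27 and 10.4 CPM against 119, 125 and 162 in F-36P and 3.93, 5.20 and 6.34 against 28.8, 34.5 and 30.9 in KASUMI-1, and its difference was 1.39 ± 0.26. The antiproliferative BTG2 differed the other way, by -3.15 ± 0.28: it had 26.4, 25.5 and 18.1 CPM against 60.4, 59.4 and 62.1 in F-36P and 0.362, 0.322 and 0.461 against 8.06, 9.17 and 9.40 in KASUMI-1. Both genes rose in both lines. The kinase PLK3 (1.70 ± 0.22) and the metabolic phosphatase TIGAR (1.51 ± 0.38) also differed. The difference was called for 4 genes higher in F-36P and 3 in KASUMI-1, with a median of -0.30. The shares over all genes were 7.69% and 7.17%.

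Apoptosis regulators and death receptors were likewise divided. Of 27 apoptosis regulators, 8 rose in each line, 4 of them in both. The 8 are 29.6% of the list, against 23.8% of all genes in F-36P and 19.6% in KASUMI-1. Responses differed for 3, higher in F-36P, and 4, higher in KASUMI-1. The proapoptotic BOK (3.05 ± 0.49) and BIK (2.37 ± 0.50) rose in F-36P from means of 0.152 and 0.114 CPM and were already at 4.92 to 16.0 CPM in every KASUMI-1 library. Of 16 death receptors and ligands, 8 rose in F-36P and 10 in KASUMI-1, 5 in both. These are 50% and 62.5% of the list, against 23.8% and 19.6% of all genes. The ligand TNFSF10, also called TRAIL, had 19.7, 27.9 and 27.3 CPM against 57.7, 42.0 and 46.4 in F-36P and 0.777, 1.29 and 1.27 against 8.57, 8.51 and 7.64 in KASUMI-1, a difference of -1.93 ± 0.28. Its decoy receptor TNFRSF10C differed by -1.89 ± 0.29. CD70 had 0 reads in untreated and 17 in treated KASUMI-1 cells, 5.08-fold against a floor of 3 reads over the group.

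In the heat shock and oxidative stress list 4 of 20 genes had a higher response in F-36P and 0 in KASUMI-1, and 3 of the 4 were metallothioneins, which bind metals. The 4 are 20% of the list, against 7.69% of all genes. MT2A had 16.6, 15.8 and 15.1 CPM against 30.1, 22.5 and 45.2 in F-36P and 60.5, 63.6 and 72.9 against 28.2, 40.7 and 31.99 in KASUMI-1. The levels converged, and the difference was 2.01 ± 0.29. MT1E (2.20 ± 0.60) and MT1X (1.49 ± 0.37) moved the same way, though these genes are close copies between which reads can be shared. The chaperone HSPA8 had responses of -1.02 and -0.86, the first of them called, a call lost with DESeq2 size factors (-0.83), with library size alone (-0.63) and without each of 5 F-36P libraries in turn (-0.99 to -0.90).

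Lineage genes differed in both directions. Of 27 erythroid genes, 8 fell and 0 rose in F-36P, while 8 rose and 2 fell in KASUMI-1, and 9 had a higher response in KASUMI-1 and 1 in F-36P. The 8 that rose in KASUMI-1 are 29.6% of the list, against 19.6% of all genes. Among all genes 8.94% fell in F-36P, 4.95% fell in KASUMI-1 and 7.17% had a higher response in KASUMI-1. The levels reached in KASUMI-1 stayed low. GATA1, the master regulator of erythroid cells, had 278, 288 and 239 CPM against 146, 176 and 174 in F-36P and 1 read against 28 in KASUMI-1, a ratio of 25.1 (exact 95% interval 4.15 to 1026). ANK1, a membrane skeleton protein, fell from 722, 621 and 624 to 170, 181 and 219 CPM in F-36P and went from 1 to 27 reads in KASUMI-1, a ratio of 24.2 (3.99 to 990). NFE2, which regulates globin genes, was better expressed: 239, 217 and 213 CPM against 123, 143 and 153 in F-36P, and 3.57, 4.50 and 4.43 against 25.5, 35.4 and 29.5 in KASUMI-1. Its difference was -3.53 ± 0.20.

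Of 24 granulocytic and monocytic genes, 13 rose in F-36P, and 11 rose and 4 fell in KASUMI-1, 7 rising in both. The 13 and the 11 are 54.2% and 45.8% of the list, against 23.8% and 19.6% of all genes. The difference was called for 10 higher in F-36P and 3 in KASUMI-1. The 10 are 41.7% of the list, against 7.69% of all genes. ITGAM, the integrin chain CD11b, had 15.4, 12.8 and 12.8 CPM against 34.3, 34.5 and 31.7 in F-36P and 0.466, 0.429 and 0.576 against 19.8, 18.0 and 19.96 in KASUMI-1, a difference of -3.99 ± 0.22. PRTN3, a granule protease, had 774, 912 and 987 CPM against 289, 428 and 382 in KASUMI-1. In F-36P it had 0 against 6 reads, 1.56-fold against a floor of 3 reads, too few to show a rise. The single most abundant marker of each line was near 0 in both states of the other line. HBG2, the most abundant erythroid transcript of F-36P, had 6 reads in untreated and 3 in treated KASUMI-1 libraries, and MPO had means of 1.03 and 1.26 CPM in untreated and treated F-36P libraries. Not all other markers were near 0. In untreated and treated F-36P, CD34 had means of 32.9 and 52.5 CPM and POU4F1 14.4 and 14.1. EPOR had 12.6 and 29.8 in KASUMI-1.

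The largest differences overall were mostly of genes present in 1 untreated line and near 0 in the other. Higher in F-36P were SIPA1L2 (4.99 ± 0.25), LRATD2 (5.33 ± 0.30), the B-cell transcription factor PAX5 (5.94 ± 0.45), SLC12A8 and PDZD2. PAX5 had 0.114, 0.114 and 0 CPM against 3.84, 4.10 and 5.65 in F-36P and 16.7, 15.9 and 17.4 against 16.2, 12.4 and 16.4 in KASUMI-1. The folate enzyme ALDH1L2 had 0 reads in untreated and 154 in treated F-36P cells and was at least 39.9-fold higher there, while it fell from 83.7, 76.0 and 67.3 to 34.3, 21.96 and 27.8 CPM in KASUMI-1. KLHDC7B went from 2 to 1185 reads in F-36P (ratio 461, exact 95% interval 127 to 3809), SAMD11 from 1 to 311 (242, 43.1 to 9583) and the myeloid nuclear antigen MNDA from 1 to 141 (110, 19.4 to 4361). GSAP was at least 36.3-fold higher.

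Higher in KASUMI-1 were the histamine-forming enzyme HDC (-6.45 ± 0.40), the tyrosine kinase SRC (-4.90 ± 0.45), the intermediate filament vimentin VIM (-4.81 ± 0.38), MBOAT2 (-4.56 ± 0.38), C11orf21 (-4.47 ± 0.37) and the immune checkpoint receptor VSIR (-4.35 ± 0.20). VSIR had 105, 93.1 and 95.8 CPM against 105, 123 and 113 in F-36P, with overlap. In KASUMI-1 it went from 1.35, 0.965 and 1.38 CPM to 25.6, 32.8 and 29.4. VIM stayed between 556 and 691 CPM in F-36P and went from 0.104, 0.0536 and 0.0576 to 2.22, 3.31 and 1.996 CPM in KASUMI-1. ADGRG5 rose from 3 to 885 reads in KASUMI-1 (ratio 264, exact 95% interval 90.1 to 1284), CDH23 from 1 to 186 (167, 29.5 to 6617), and YPEL4, with 0 reads untreated, was at least 46.9-fold higher.

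Among the opposite changes, NHERF2, a scaffold of membrane carriers, had 2.34, 2.29 and 2.59 CPM against 16.9, 22.8 and 27.2 in F-36P and 7.61, 9.38 and 9.85 against 3.20, 3.97 and 4.14 in KASUMI-1 (difference 4.46 ± 0.27). SLC12A8 (5.41 ± 0.35), PDZD2 (6.11 ± 0.42) and NDUFA4L2 (4.01 ± 0.31) moved the same way. In the other orientation, the Wnt ligand WNT5B fell from 231, 220 and 204 to 37.5, 44.2 and 48.8 CPM in F-36P and rose from 0.466, 0.0536 and 0.634 to 3.15, 4.02 and 2.48 in KASUMI-1 (-5.39 ± 0.39). SLA, an adaptor that dampens receptor signalling, fell from 70.4, 71.9 and 73.3 to 29.7, 27.3 and 29.3 CPM in F-36P and rose from 11.7, 15.3 and 13.6 to 69.9, 68.3 and 65.7 in KASUMI-1, so that the lines exchanged levels (-3.65 ± 0.15, adjusted p = 2.84e-09). The histone gene H2AC6 (-3.73 ± 0.35), the elongation factor ELL2 (-3.32 ± 0.17) and LHFPL2 (-3.30 ± 0.18) also fell in F-36P and rose in KASUMI-1.

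Of 20 genes the study singled out, a list chosen on these samples and so no independent evidence, 4 had a higher response in F-36P and 3 in KASUMI-1. Besides MYC, PLK1, BIRC5 and CDKN1A these were the paracaspase MALT1 (1.59 ± 0.34), the receptor NOTCH1 (1.54 ± 0.20) and the kinase PRKCH (1.20 ± 0.41). NOTCH1 rose from 5.25, 4.86 and 5.68 to 15.5, 15.4 and 20.3 CPM in F-36P and had 52.5, 59.6 and 61.0 against 60.1, 56.9 and 75.5 in KASUMI-1. PRKCH had under 1 CPM in every F-36P library, and its call was lost without F-36P untreated replicate 3 (0.95), without F-36P etoposide replicate 2 (0.84) and without KASUMI-1 untreated replicate 1 (1.14) or 2 (1.20) or etoposide replicate 1 (1.21) or 3 (1.12), where its adjusted p lay between 0.0503 and 0.0682. The chromatin remodeller SMARCA4 had responses of -1.38 and -0.72 with no called difference, and PARP9 rose by 2.07 and 1.20.

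The other 8 lines fitted, all but OCI-AML2, served as a description of how common each class was, each against its own untreated cells. A gene not tested in a line counts as not called there, and 12793 to 14108 of the 17303 genes were tested in each. Of all 17303 genes, 4.07% were called induced in at least 4 of the 8 and 0.838% called repressed. Of the shared inductions of F-36P and KASUMI-1, 17.4% were, and of the shared repressions 9.53%. For the KASUMI-1-specific changes the shares were 13.4% of inductions and 8.25% of repressions, and for the F-36P-specific ones 7.71% and 1.45%, and the differences between classes were not tested. Of the F-36P-specific repressions, 78.3% were called repressed in 0 of the 8, against 236 of the 472 shared repressions, 44.3% of the KASUMI-1-specific ones and 88.5% of all genes tested.

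**Figure D4:**
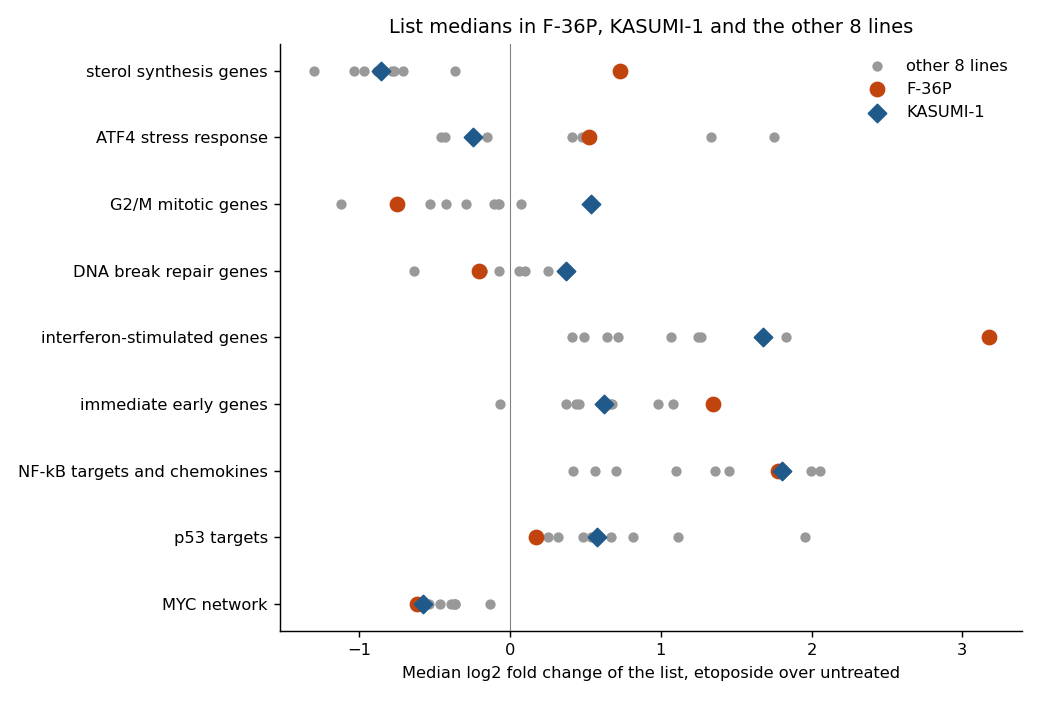
Median response (log2 fold change, etoposide over untreated) of 9 gene lists in F-36P (red circle), KASUMI-1 (blue diamond) and each of the other 8 lines fitted (grey points). F-36P and KASUMI-1 were scaled together and each of the other lines alone. F-36P has the only positive median for the sterol synthesis genes (0.73) and the highest for the interferon-stimulated genes (3.17), and KASUMI-1 the highest for the mitotic genes (0.54), while both lie together for the MYC network (-0.61 and -0.57).

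Gene length was set beside the responses. In the longest of 5 equal bins of genes by span, from 90.3 kb upwards, 14.8% fell in F-36P, against 6.32 to 9.62% in the other bins. In KASUMI-1 the longest bin had 6.47% and the others 3.67 to 5.42%. The median difference of the responses ran from -0.27 in the longest bin to -0.17 in the second shortest, close to the -0.22 of all genes.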

How the data were processed

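RNA was sequenced single-end from a stranded mRNA kit. The authors aligned the reads with STAR 2.5.3a to GRCh38.p7 with gencode 25 genes, after FastQC 0.11.5, used edgeR 3.20.1 themselves, and deposited whole-number counts of reads per gene, 1 file per library. The counts were used as deposited. Of 58037 identifiers per file, 45 Y copies of pseudoautosomal genes, which held 0 reads, were left out. Names came from gencode 44, which held 56948 of the remaining 57992.

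The 12 libraries were filtered (filterByExpr, minimum count 10, minimum total 15) and scaled by TMM in edgeR 4.0.16 (R 4.3.3), and the quasi-likelihood test was fitted with 1 mean per group. The interaction of line and treatment gave the difference of the responses. A gene was called at a Benjamini-Hochberg adjusted p under 0.05 over all 17303 genes tested and an absolute log2 value over 1. Standard errors were taken from the F statistic, and can be too small for a difference near 0 in genes with few reads. Depth was 18218362 to 21121569 reads on genes per library. For few reads, folds are set against 3 reads over the group or given as ratios with exact 95% intervals, which cover counting error only. A fold set against 3 reads leaves out the counting error of the treated reads, so "at least" there is not a 95% limit. Of the other 9 lines, 8 were each fitted against their own untreated cells. The 6 libraries of OCI-AML2 were not used, because the authors discarded its treated ones on read quality.

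The part of the series studied, the gene lists and the motifs were chosen with earlier results of these data known. Genes were named by rule: the 10 largest differences in each direction, the 5 largest shared inductions and repressions, the 5 largest opposite changes in each orientation (all with a mean of at least 1 CPM in each line), the 4 list members with the largest called difference, up to 3 well-expressed members without one, and the genes the study singled out. RUNX1T1 and MPO were added as markers, and a few list members (GATA1, ANK1, BIRC3, TNF, CD70, PRTN3) have so few reads in a group that ratios replace fitted values. Promoter sequences and motif shares came from RefSeq, build GRCh38.p14. The test was checked on simulated data. Alternatives were other scalings, filters, DESeq2 1.42.0, glmTreat, a 60-library fit, each line alone, a replicate block, leaving out each library, and leaving out 3 libraries together, with and without keeping the TMM reference. Some genes that the rule names are not reported here.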

Additional observations from a re-analysis of the deposited data

Results flagged for a closer look

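The responses of the 2 lines differed, by the interaction test itself, for 1330 genes higher in F-36P and 1240 higher in KASUMI-1, and 144 genes were called in opposite directions. Each of the following was marked because the test of the difference passed while its responses had opposite signs in the 2 lines. Up in F-36P and down in KASUMI-1 were PDZD2 (a difference of 6.11), SLC12A8 (5.41), NHERF2 (4.46), NDUFA4L2 (4.01) and ASNS (2.30). Down in F-36P and up in KASUMI-1 were WNT5B (-5.39), H2AC6 (-3.73), SLA (-3.65), ELL2 (-3.32) and LHFPL2 (-3.30). The test for a single value far from its group needs at least 4 libraries and was not run on these groups of 3. H2AC6 belongs to a family of near-identical histone genes, between which reads can be split.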

How the results depend on the processing

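Of the 68 differences printed for single genes, 48 kept their direction and call under all 21 alternatives, 2 more did under the 20 that could be fitted to them, and 61 did when the stricter 2-fold test (glmTreat) and the 5 CPM minimum are set aside. CDT1, NPM1, TOP2B, MRE11 and NBN lost their call with DESeq2 size factors, library size alone and DESeq2. With DESeq2 size factors in edgeR, 787 genes were higher in KASUMI-1, 967 fell in F-36P and 94 repressions were F-36P-specific, and DESeq2 itself gave 777, 954 and 99. Library size alone gave 744, 617 and 66, with 247 shared repressions. One fit over 60 libraries gave 1007 genes repressed in F-36P and 116 specific repressions. With no filter beyond 1 read, 7254 genes were called induced in F-36P. Limited to genes that reached 5 CPM on average in a group, 566 genes were higher in KASUMI-1, 2142 rose and 636 fell in F-36P, 1538 rose in KASUMI-1, 890 inductions were shared, 64 repressions were F-36P-specific and 311 inductions KASUMI-1-specific. Fewer genes were tested there. With no fold minimum, 3331 genes were higher in KASUMI-1, 5413 fell in F-36P, 5649 rose and 3487 fell in KASUMI-1, 3446 inductions and 2585 repressions were shared, 1050 repressions were F-36P-specific and 213 KASUMI-1-specific, and 771 changes were opposite. With glmTreat against a 2-fold change, 647 genes were higher in F-36P and 434 in KASUMI-1, 769 fell in F-36P, 1853 rose and 327 fell in KASUMI-1, 1112 inductions and 192 repressions were shared, the F-36P-specific inductions and repressions were 513 and 66, those of KASUMI-1 254 and 24, and 38 changes were opposite. Each line normalized and fitted alone gave 2084 inductions in KASUMI-1. Apart from the smaller gene table and the stricter or absent fold limit, the cause of these shifts was not tested.

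Leaving out each library in turn gave 1186 to 1590 genes higher in F-36P and 751 to 1301 higher in KASUMI-1. Leaving out F-36P untreated replicate 1, F-36P etoposide replicate 1 or F-36P etoposide replicate 3 also turned the TMM reference to KASUMI-1 etoposide replicate 1, which with all 12 libraries gave 1609 and 789. In the other 9 fits the counts were 1186 to 1338 and 1139 to 1301, and F-36P-specific repressions 204 to 228. With the reference kept, leaving out F-36P etoposide replicate 3 gave 1217, 1211 and 237. Inductions were 4259 to 4841 and repressions 1140 to 1634 in F-36P, and 3171 to 3659 and 841 to 1087 in KASUMI-1. Shared inductions were 1976 to 2333 and shared repressions 469 to 496, F-36P-specific changes 754 to 984 and 108 to 228, KASUMI-1-specific ones 399 to 590 and 87 to 143, and opposite changes 130 to 149. Leaving out F-36P untreated replicate 3, F-36P etoposide replicate 2 and KASUMI-1 etoposide replicate 2 together, chosen after seeing the data, gave 1455 and 750 with the same change of reference, and 1240 and 1083 with the reference kept. The response of ATF4 in F-36P, not called, turned to 0.11 with library size alone and 0.015 at 5 CPM. The median difference turned to 0.017 for p53 targets and 0.033 for apoptosis regulators at 5 CPM. For NF-kB targets it ran from -0.64 to 0.076 when each library was left out, positive without F-36P untreated replicate 1, where the reference changed.

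With the replicate number as a replicate block, 1207 genes were higher in F-36P and 1091 in KASUMI-1, of which 1190 and 1079 were also called without it, and TOP2B and NBN lost their call. Same-numbered libraries did not deviate together (r = -0.21, 0.04 and -0.12 in F-36P, 0.13, -0.06 and -0.08 in KASUMI-1), so the numbers were not taken as pairs. Depth limits the differences of genes near 0 in 1 line, and 3 libraries a group limit all of them.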

Other observations

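Genes that untreated cells of 1 line expressed at 5 CPM or more, and at least 32-fold above the other, were looked at as 2 sets chosen by those untreated levels, so their counts are a description with no test. Of 584 genes marking F-36P, 266 (45.5%) were called induced in KASUMI-1, where their median went from 0.0351 to 0.198 CPM. Of 446 genes marking KASUMI-1, 351 (78.7%) were called induced in F-36P, where their median went from 0.133 to 0.859 CPM. Among all genes tested 19.6% were called induced in KASUMI-1 and 23.8% in F-36P. In the line where they were low, 0 genes of either set were called repressed. The levels reached stayed low, at a median of 3.85% of the level in treated KASUMI-1 for the second set and 0.816% of that in treated F-36P for the first. In their own line the same sets had median responses of -0.28 in F-36P and -0.23 in KASUMI-1. Low values in the untreated group are part of how both sets were chosen, which leaves little room for a fall there.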
